A study of Mus musculus with 4 samples.

Results

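Collagens were taken as every gene whose current symbol is Col, a type number, the letter a and a chain number, and 42 such genes of 18193 named genes were measured in newborn mouse lens. They were split by type into 7 chains of the lens capsule (types IV and XVIII), 9 fibrillar chains (types I, II, III, V and XI) and 26 others. The fibrillar class holds those types alone. Types XXIV and XXVII were counted with the others whether or not they form fibrils. The brightest of the 82 probe sets stood for each gene, and 15 of the genes had a single probe set. Col28a1 and Col6a6 were not analysed here. RNA came from whole lenses of 129S3 mice at postnatal day 0.5, labelled as males, with 2 samples labelled wild type and 2 labelled HSF4 knockout, 1 array each, numbered 1 and 2. Hsf4 encodes a heat shock transcription factor of the lens, and here collagen RNAs are compared between the labelled genotypes. The labels do not say how the deletion was made, whether lenses were pooled or whether each sample is a separate animal. The p-values thus rest on array-to-array spread alone, and that spread may be technical.

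Collagens are trimers of chains wound into a triple helix. Fibrillar collagens are secreted as procollagens, trimmed at their ends and packed into the cross-linked fibres of connective tissue, where fibroblasts are the main source. Type IV collagen instead forms a sheet-like network and is the main collagen of basement membranes. The lens capsule is a thick basement membrane laid down by the lens epithelium and fibre cells and holds type IV collagen and the heparan sulphate proteoglycan type XVIII collagen, whereas the healthy lens inside it has no fibrous connective tissue.

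Levels below are quantile-normalized intensities, given in the order wild type 1, wild type 2, knockout 1, knockout 2. A change is the knockout mean less the wild-type mean of log2(intensity + 16), a scale that understates the change of dim genes, given with limma's standard error (SE) or 95% confidence interval and its p-value adjusted by Benjamini-Hochberg over 11595 genes. Levels of different genes are not compared, since probe sets differ in brightness, and a sum over a list is compared between arrays only. Genes as bright as the median probe set, an intensity of about 13.0, or brighter were tested, and 29 of the 42 collagen genes did so, all 7 capsule chains, 7 of the 9 fibrillar chains and 15 of the 26 others.

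The arrays differed in ways that bear on these values. Median deposited intensities ran from 6.58 to 21.4. Log2 levels correlated at 0.973 between the arrays numbered 1 and at 0.941 between those numbered 2, against 0.949 between the wild-type and 0.925 between the knockout arrays. Knockout array 2 stood apart in its control probe sets, with the 3' probe set of 18S ribosomal RNA at 3228, against 349 on wild-type array 2 and 12.8 and 10.6 on the arrays numbered 1, while the 5' probe set was high on both arrays numbered 2 (6898 and 7309). The labels could not be checked by the deleted gene. The only probe set named Hsf4 measured 505, 138, 1212 and 413, brighter on the knockout array within each number, and the sources used here do not say where it lies relative to the deleted part. "Knockout" therefore means the arrays labelled so. Lens identity was clear, with Mip between 3670 and 4896 and Lim2 between 3868 and 5185, both fibre membrane proteins. The corneal keratin Krt12 was between 0.959 and 15.6, near or below the threshold for testing.

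Promoter sequences are shown for 2 fibrillar chains whose RNA was lower in knockout and for an X-linked pair of capsule chains that lie head to head, and letters are shown for these 4 alone. The windows are the 250 bases before each start of transcription in RefSeq on GRCm38.p6, written 5' to 3' on the strand of the gene, with capitals marking matches on either strand. The letters searched were GAANNTTC, and likewise TTCNNGAA, which pair inverted units of a heat shock element, the TATA box as TATAAA, the CCAAT box by those letters, and the GC box as GGGCGG. No overlap between motifs was removed. The Col1a2 window is chr6:4505368-4505617 on the plus strand, Col3a1 chr1:45311288-45311537 on the plus strand, Col4a5 chrX:141475169-141475418 on the plus strand and Col4a6 chrX:141474077-141474326 on the minus strand.
Col1a2: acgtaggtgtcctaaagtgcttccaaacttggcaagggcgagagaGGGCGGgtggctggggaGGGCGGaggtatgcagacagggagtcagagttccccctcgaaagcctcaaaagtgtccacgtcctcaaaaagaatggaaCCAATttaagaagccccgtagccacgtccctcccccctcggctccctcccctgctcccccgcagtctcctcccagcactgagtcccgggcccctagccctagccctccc
Col3a1: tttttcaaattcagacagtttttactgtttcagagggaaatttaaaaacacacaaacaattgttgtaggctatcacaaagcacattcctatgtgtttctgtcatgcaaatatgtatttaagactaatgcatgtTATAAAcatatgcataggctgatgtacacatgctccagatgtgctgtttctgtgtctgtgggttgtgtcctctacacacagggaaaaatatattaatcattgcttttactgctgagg
Col4a5: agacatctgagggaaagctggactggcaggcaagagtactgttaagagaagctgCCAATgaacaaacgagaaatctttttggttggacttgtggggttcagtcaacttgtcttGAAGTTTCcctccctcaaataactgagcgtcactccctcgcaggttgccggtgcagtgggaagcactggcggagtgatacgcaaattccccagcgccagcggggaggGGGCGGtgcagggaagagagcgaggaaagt
Col4a6: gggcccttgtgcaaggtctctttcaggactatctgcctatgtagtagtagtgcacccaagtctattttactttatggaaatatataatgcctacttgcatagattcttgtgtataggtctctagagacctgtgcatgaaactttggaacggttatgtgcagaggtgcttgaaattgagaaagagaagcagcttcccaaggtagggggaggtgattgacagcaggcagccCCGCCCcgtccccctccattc
Col1a2 held a CCAAT box starting 109 bases and GC boxes starting 205 and 188 bases before its start, whereas Col3a1 held only a TATAAA, at 117 bases. Col4a5 held a CCAAT box, a GC box and 1 GAANNTTC, at 137 bases, while Col4a6 held a GC box alone. RefSeq windows were at hand for 33 of the 42 genes, 36 windows in all. GAANNTTC lay in 1 of the 36, that of Col4a5, against 6.69% of all 32851 windows, and TTCNNGAA in 1 of the 36 against 7.17%. A CCAAT box lay in 13 of the 36 (33.8% of all windows) and a GC box in 21 of the 36 (32.7%), while TATAAA lay in 5 of the 36 (12.4%), in 2 of 6 fibrillar and 0 of 7 capsule windows. A match is a run of letters and not a bound site.

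None of the 29 tested collagen genes passed the threshold in limma, against 0.0345% of all tested genes (4 of 11595). At an unadjusted p under 0.05 there were 4, against 2.35% of all tested genes, and these 4 were the fibrillar genes Col1a1, Col1a2, Col3a1 and Col5a2, all lower in knockout. Over all measured members, filtered or not, the wild-type and knockout values did not overlap and were lower in knockout for 5 of the 9 fibrillar, 0 of the 7 capsule and 7 of the 26 other genes, against 14.7% of all 18193 genes. They were higher in knockout for 1 collagen gene, Col25a1 of the others, against 14.0% of all genes. Within both array numbers 15 of the 42 were lower and 5 higher, against 26.2% and 26.1% of all genes (27.5% and 26.1% of tested genes). The median log2 change was -0.59 for the fibrillar, 0.01 for the capsule and -0.10 for the other genes, and 0.00 for all genes. The capsule median lay 0.60 above the fibrillar median, and 0.60 and 1.15 above it within array numbers 1 and 2. The fibrillar median, over all 4 arrays and within number 2, was the value of Col5a3. That gene was too dim to be tested, and its second probe set had a change of 0.52. The gap was 0.18 both on values as deposited and with median centring, 0.21 with offset 64 and 1.26 with offset 1, and it ranged from 0.26 without wild-type array 2 to 1.18 without wild-type array 1. With 2 arrays a group these class values carry no test.

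**Figure D1:**
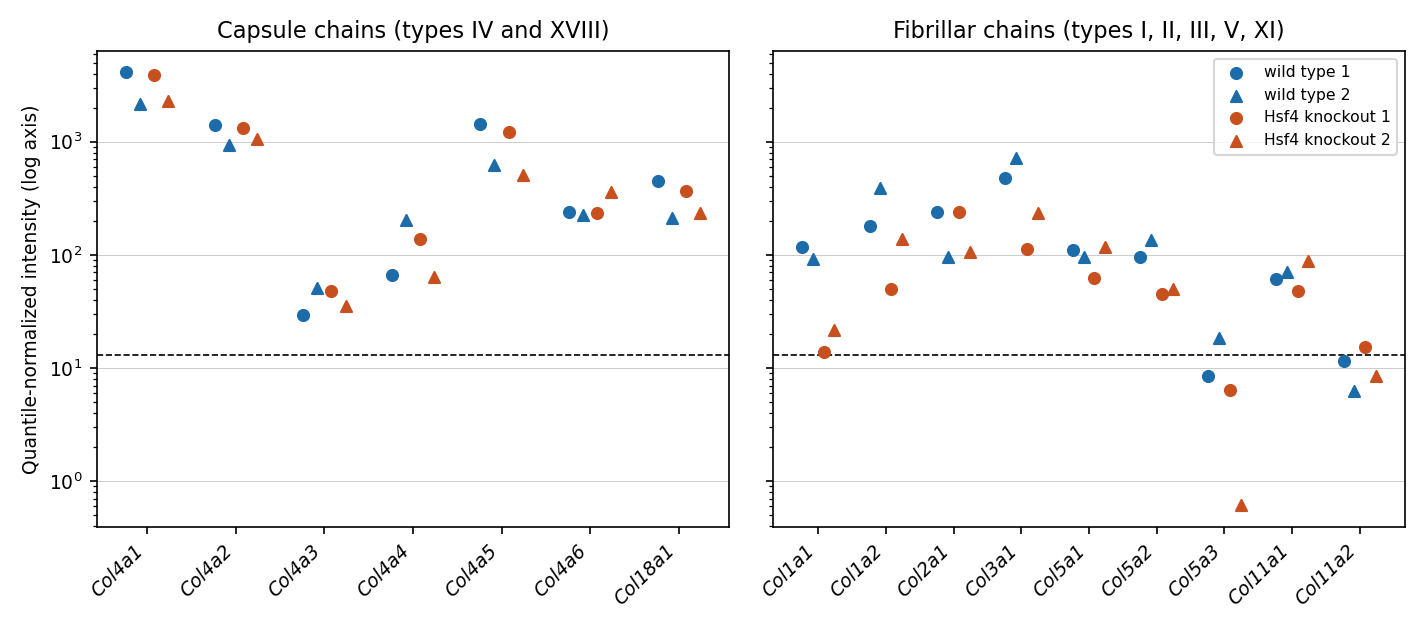
Quantile-normalized intensity (log axis) of each capsule chain (left) and fibrillar chain (right) on the 4 arrays; blue is wild type, orange is Hsf4 knockout, circles are arrays numbered 1 and triangles arrays numbered 2, and the dashed line is the threshold for testing at about 13.0. Both knockout points lie below both wild-type points for Col1a1, Col1a2, Col3a1, Col5a2 and Col5a3, and for none of the capsule chains.

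Among the fibrillar chains, those of types I and III were lower on both knockout arrays. Col1a1, the alpha 1 chain of type I collagen, the main fibre protein of connective tissue, measured 116, 92.1, 13.7 and 21.5. Both knockout arrays lay near the threshold for testing and far below both wild-type arrays. The means were 104 ± 17.3 and 17.6 ± 5.48 (SD, n = 2), so the knockout level was 16.9% of wild type. The log2 change was -1.84 (SE 0.31, 95% interval -2.54 to -1.14, unadjusted p = 0.000181), and the limma adjusted p was 0.175. Leaving out knockout array 1 gave a change of -1.67 and an adjusted p of 0.00527, and leaving out knockout array 2 gave -2.01 and 0.000345, in fits where 274 and 61 genes passed in all. The adjusted p was 0.901 without wild-type array 1 and 0.263 without wild-type array 2, where 4 and 7 genes passed.

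Col1a2, which supplies the other chain of the same trimer, measured 179, 390, 49.7 and 138. The groups did not overlap, and the array numbered 2 was the brighter in both groups. The means were 284 ± 149 and 93.6 ± 62.2 (SD, n = 2), with the knockout at 33.0% of wild type. Its log2 change was -1.48 (SE 0.47, limma adjusted p = 1). The arrays numbered 1 alone gave -1.57 and those numbered 2 gave -1.40. Leaving out knockout array 1 moved the change to -0.87, and leaving out knockout array 2 moved it to -2.10, with limma adjusted p-values of 0.369 and 0.00062. These were 0.355 without wild-type array 1 and 0.9996 without wild-type array 2, so the gene passed in 1 of the 4 fits.

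Col3a1, the chain of type III collagen, which forms fine fibres together with type I in skin, vessels and loose tissue, measured 476, 710, 114 and 233. Here too both knockout arrays lay below both wild-type arrays, and the arrays numbered 2 were the brighter. The means were 593 ± 165 and 174 ± 84.8 (SD, n = 2), with the knockout at 29.3% of wild type. The log2 change was -1.73 (SE 0.37, unadjusted p = 0.00101, limma adjusted p = 0.532), and without knockout array 2 it was -2.21 with an adjusted p of 0.0001. The other fits with an array left out did not pass, with adjusted p-values of 0.0626 without knockout array 1 (change -1.26), 0.244 without wild-type array 1 and 0.9996 without wild-type array 2.

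Type V collagen starts and limits the width of type I fibres, and its 3 chains differed among themselves. Col5a2, the neighbour of Col3a1 on chromosome 1 in RefSeq, measured 96.2, 136, 45.03 and 50.0. Its knockout values lay close together and below both wild-type values, at 40.9% of the wild-type mean, with a log2 change of -1.04 (SE 0.31, limma adjusted p = 1). Col5a1 measured 110, 94.9, 62.8 and 118, so its groups overlapped, and its log2 change was -0.21 (95% interval -0.97 to 0.56). Col5a3 was too dim to be tested, at 8.59, 18.4, 6.39 and 0.615. Its second probe set went the other way, at 1.92, 1.13, 6.31 and 12.2 (log2 change 0.52).

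The chains of types II and XI, fibrillar collagens typical of cartilage and of the vitreous, had overlapping groups. Col2a1 measured 237, 95.9, 239 and 107, high on both arrays numbered 1 and low on both numbered 2. Its change was 0.07 (95% interval -0.96 to 1.11), and 0.01 and 0.13 within the numbers. Col11a1 measured 60.7, 70.3, 47.8 and 87.8, with a change of 0.00 (95% interval -0.75 to 0.75). Col11a2 was too dim to be tested, at 11.5, 6.24, 15.3 and 8.57. Both intervals are too wide to show that these chains were unaltered.

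Capsule chains did not separate by genotype on these arrays. Col4a1, a chain of the ubiquitous type IV trimer, measured 4093, 2139, 3868 and 2288, a log2 change of 0.01 (SE 0.33, 95% interval -0.73 to 0.75). Col4a2, its partner in the same trimer, measured 1405, 928, 1322 and 1050, with a change of 0.04 (SE 0.28, 95% interval -0.57 to 0.66). Both were brighter on the arrays numbered 1 than on those numbered 2 in each group, Col4a1 by 1.91 times among wild-type and 1.69 times among knockout arrays and Col4a2 by 1.52 and 1.26 times. These genes start 21 bases apart on opposite strands of chromosome 8 in the RefSeq table.

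Col4a5, an X-linked chain that joins other type IV trimers, followed the array number too, at 1423, 626, 1209 and 507. Its change was -0.26 (SE 0.45, 95% interval -1.28 to 0.75), with -0.23 and -0.30 within the numbers, the only capsule chain of one sign within both. Xist, the RNA that coats an inactive X chromosome, also ran with the number, at 605, 58.0, 260 and 9.01, though all samples are labelled male, and its part in the level of Col4a5 was not tested. Col4a6, whose start lies 1343 bases from that of Col4a5 and faces away from it, did not follow the number. It measured 237, 224, 232 and 362, highest on knockout array 2, with a change of 0.31 (SE 0.31, 95% interval -0.39 to 1.02).

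Col4a3 and Col4a4, neighbours on chromosome 1 whose chains form a trimer with that of Col4a5, had yet another pattern by their brightest probe sets. Col4a3 measured 29.3, 50.7, 48.1 and 35.5, and Col4a4 measured 65.8, 204, 137 and 64.03. Both were highest on wild-type array 2, with knockout array 1 next, so their changes were of opposite sign within the numbers, 0.50 and -0.37 for Col4a3 and 0.90 and -1.46 for Col4a4. Pooled over the 4 arrays the changes were 0.06 (SE 0.33) and -0.28 (SE 0.48). The dimmer probe sets of Col4a4 measured 88.5, 63.5, 132 and 37.5, and 32.4, 19.9, 52.9 and 15.8. They were highest on knockout array 1 and brighter on the arrays numbered 1 in both groups. The second probe set of Col4a3 measured 35.6, 54.5, 54.7 and 7.35. Col18a1, whose C-terminal fragment is endostatin, measured 447, 212, 365 and 233, again brighter on the arrays numbered 1, with a change of -0.08 (SE 0.39, 95% interval -0.95 to 0.79).

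Of the 7 capsule chains, 4 were brighter on the arrays numbered 1 in both groups by their brightest probe sets (Col4a1, Col4a2, Col4a5 and Col18a1). Taken as the median deviation of the 7 chains from their own means, the capsule score was 0.27 and -0.32 on wild-type arrays 1 and 2 and 0.27 and -0.35 on knockout arrays 1 and 2. The same score for the 9 fibrillar chains was 0.21 and 0.54 in wild type and -0.49 and -0.39 in knockout. The fibrillar scores thus did not overlap between the groups, whereas the capsule scores did and were higher on the arrays numbered 1. Scores of the 26 other collagens did not overlap either, at 0.066 and 0.084 in wild type and -0.085 and -0.096 in knockout. The capsule score less the fibrillar score was 0.061 and -0.858 in wild type and 0.753 and 0.047 in knockout, so this difference overlapped between the groups.

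**Figure D2:**
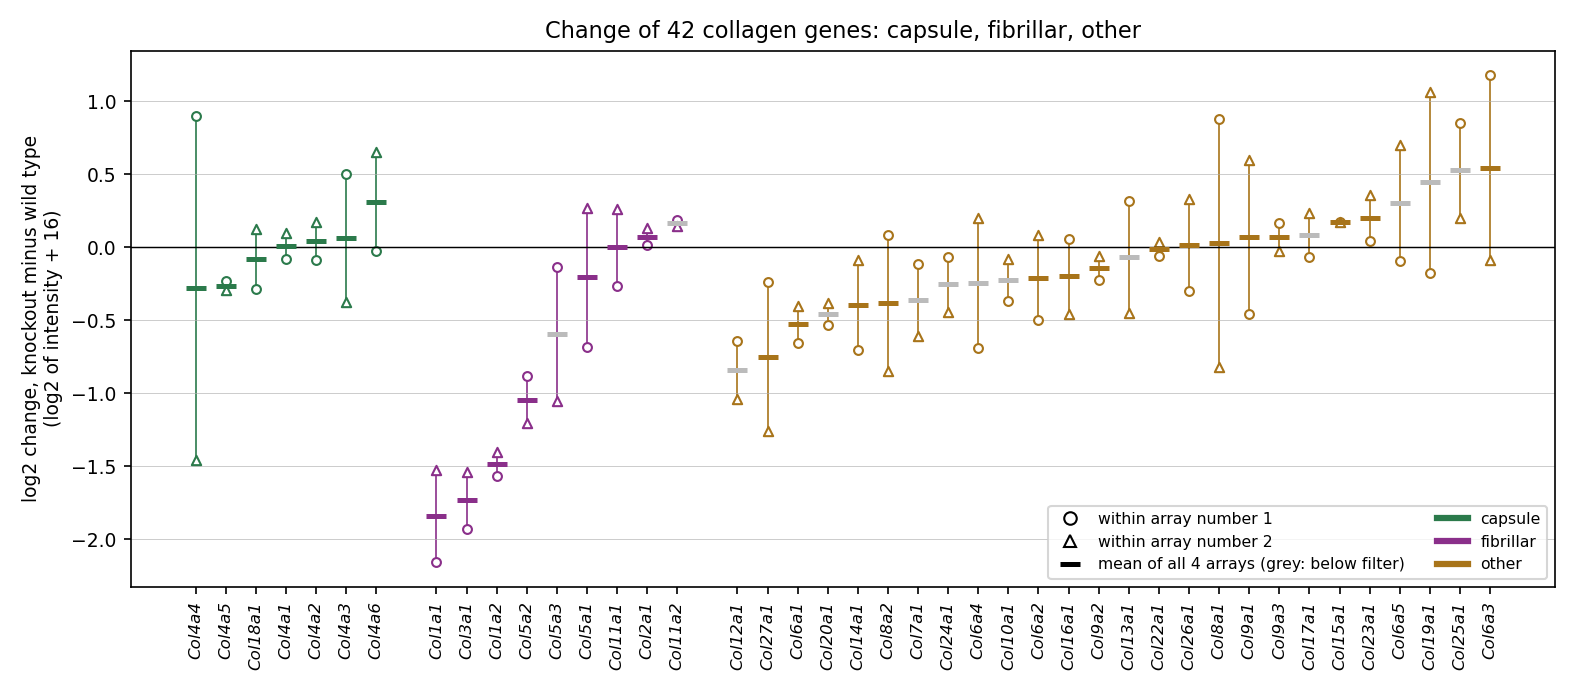
Log2 change, knockout minus wild type, of the 42 collagen genes ordered within the capsule (green), fibrillar (purple) and other (brown) classes; horizontal bars are the change over all 4 arrays (grey where the gene was below the threshold for testing), circles and triangles the change within array numbers 1 and 2. Col1a1, Col3a1, Col1a2 and Col5a2 lie at -1.04 or below, while the capsule chains span -0.28 to 0.31.

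The dimmer probe sets of the same genes were read as well. Of the 18 fibrillar probe sets, 11 had non-overlapping groups with lower knockout values and 2 with higher ones, and of the 13 above the threshold for testing 10 were lower and 0 higher. Over all 34945 probe sets with 1 symbol the shares were 14.9% lower and 14.3% higher, and over those above the threshold 14.4% and 12.6%. Of the 50 probe sets of other collagens, 11 were lower and 6 higher. The second probe set of Col3a1 measured 69.8, 78.7, 13.8 and 19.2 (log2 change -1.48), the second of Col5a2 43.7, 42.6, 11.8 and 14.8 (-1.01), and the second of Col1a2 144, 231, 27.9 and 100.004 (-1.48). The second of Col1a1 was lower on knockout array 1 than on array 2, at 42.8, 44.6, 11.4 and 38.2 (-0.63). The dimmer probe set of Col11a1 had a change of -0.71, against 0.00 for the brighter one. None of the 14 capsule probe sets, all above the threshold, had non-overlapping groups. The largest disagreement there was for Col4a3, with 0.06 and -0.57.

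**Figure D3:**
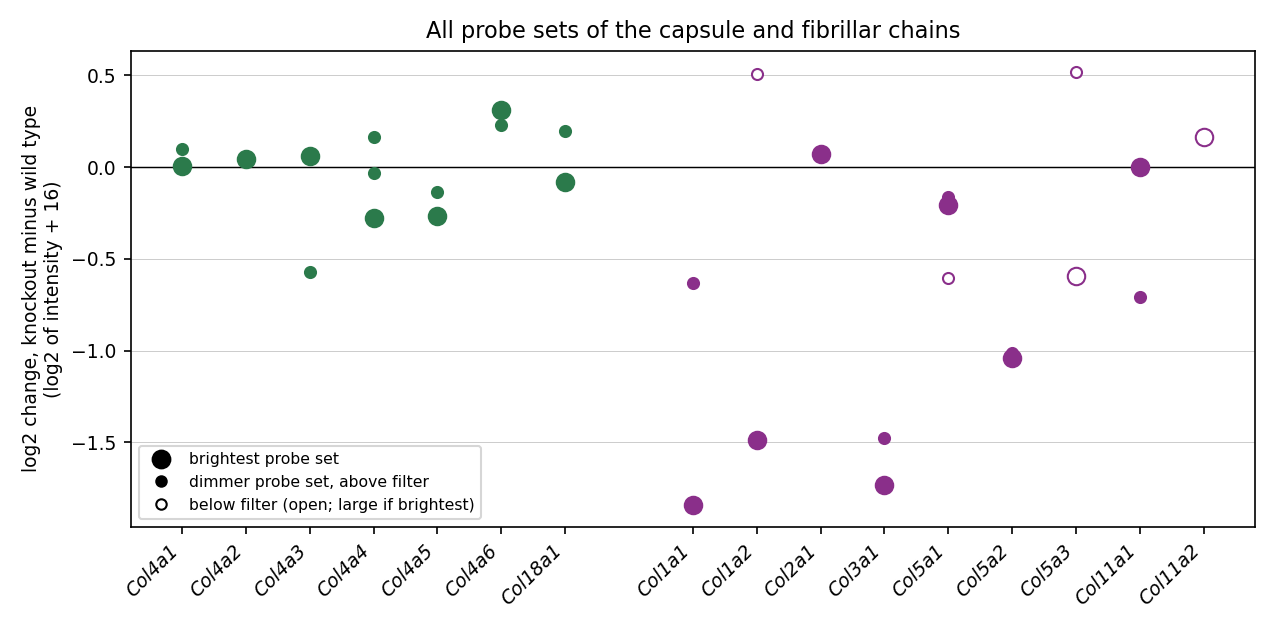
Log2 change, knockout minus wild type, of every probe set of the capsule (green) and fibrillar (purple) chains; large points are the brightest probe set of a gene, small points the dimmer ones, and open points lie below the threshold for testing. For Col3a1, Col5a2 and Col1a2 the probe sets above the threshold lie close together, while those of Col1a1 lie at -1.84 and -0.63.

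The other 26 collagens ranged from -0.84 to 0.55. Type VI collagen forms beaded microfilaments in connective tissue, and its chains went different ways. Col6a1 measured 113, 118, 65.7 and 85.5, with groups that did not overlap (log2 change -0.53, SE 0.30, limma adjusted p = 1). Col6a2 measured 68.2, 60.9, 43.5 and 65.7 (-0.21), while its second probe set had -1.22. Col6a3 measured 185, 306, 438 and 287 (0.55, SE 0.35), highest on knockout array 1, with 1.18 within number 1 and -0.09 within number 2.

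Type IX collagen coats type II fibres in cartilage and vitreous. Col9a1 measured 1819, 1038, 1318 and 1581, with a change of 0.07 (95% interval -0.58 to 0.72), and its second probe set had 0.10. Col9a2 and Col9a3 had -0.14 and 0.07. Col8a1, a network collagen of corneal and vascular endothelium, measured 23.7, 110, 57.0 and 55.6, with knockout values between those of the wild-type arrays. Col23a1, a transmembrane collagen, measured 130, 84.9, 134 and 113 (0.20, SE 0.32).

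Most of the further members at least 2-fold apart were near the lower end of the intensity range. Col12a1, which associates with type I fibres, measured 12.7, 22.1, 2.47 and 2.58, and Col27a1 measured 14.6, 31.9, 9.91 and 3.99. Col12a1 was not tested, and its next probe set, of like brightness, measured 8.49, 4.38, 10.2 and 7.88, a change of 0.16. Col27a1 had a log2 change of -0.75 (SE 0.38, limma adjusted p = 1). Col7a1, Col10a1, Col20a1 and Col24a1 were also lower, with no value above 16.4, and Col25a1 was higher, at 2.41, 14.4, 17.2 and 18.9, although its second probe set had -0.27. The dimmer probe sets of Col20a1 were not lower, with changes of 0.02, 0.22 and 0.30. Counting Col5a3 and the 4 fibrillar genes above, 11 collagen genes had non-overlapping groups at least 2-fold apart and lower in knockout by their brightest probe sets. Of these 6 were untested, and 1 further gene was higher. Over all 18193 genes the share was 5.77% lower and 5.53% higher, and over tested genes 2.07% lower and 1.19% higher.

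Genes that make, process, bind and degrade collagen had a median change of 0.01. Of 69 listed, 63 were measured and 47 tested, and none passed the threshold in limma (0.0345% of all tested genes), while 3 had an unadjusted p under 0.05 (2.35% of all tested genes), all lower. Within both array numbers 24 of the 63 were lower and 12 higher, against 26.2% and 26.1% of all genes. Among 20 measured genes of collagen maturation in the endoplasmic reticulum, P4ha1, a prolyl hydroxylase subunit that stabilises the helix, measured 593, 381, 247 and 269 (log2 change -0.85, unadjusted p = 0.0214, limma adjusted p = 1). Plod2, a lysyl hydroxylase, measured 225, 187, 132 and 113 (-0.68). Both had non-overlapping groups, yet the median of that list was -0.06.

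Lox, the lysyl oxidase that cross-links fibrillar collagen, measured 33.7, 91.1, 11.8 and 4.88. It had the lowest change of the 47 tested genes, -1.60 (unadjusted p = 0.00341, limma adjusted p = 0.949), and the change was -0.84 among arrays numbered 1 and -2.36 among those numbered 2. It passed the threshold in 1 of the 4 fits with an array left out, that without knockout array 1, where 274 genes passed in all. Loxl3, of the same family, had 0.47, and the median of the 11 measured genes of processing and cross-linking was -0.05. Among 14 measured genes of collagen breakdown and its inhibitors the median was 0.16, with Timp1 and Timp2 at 0.45 and 0.33. Among 8 measured collagen receptors it was 0.09, with Itga1 at 0.42 and Ddr1 at 0.58. The 10 measured partners of type IV collagen in the capsule had a median of -0.03, with -0.23 within number 1 and 0.28 within number 2. Of these Lama1, a laminin chain, had -0.33 and Nid2, a nidogen, 0.35.

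Markers of fibroblasts and of striated muscle were also lower on the knockout arrays. Of 13 fibroblast markers, 8 had non-overlapping groups lower in knockout and 0 higher, against 14.7% and 14.0% of all genes, and their median change was -0.68. None of the 11 tested passed the threshold, against 0.0345% of all tested genes. An unadjusted p under 0.05 was found for 5 of these 11, against 2.35% of all tested genes. Postn, a matrix protein of fibroblasts, measured 106, 220, 29.5 and 60.5 (log2 change -1.53, limma adjusted p = 0.949), and Lum, a proteoglycan of collagen fibrils, 27.1, 52.5, 10.9 and 2.10 (-1.30). The summed intensity of the 13 was 2390 and 3527 in wild type and 1706 and 2475 in knockout, so the sums overlapped between the groups. Most of each sum came from Ogn alone, at 1376, 2277, 1144 and 1802, so the sums say little about the other markers. Twist1 and Twist2 were below the threshold for testing.

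Striated muscle markers were lower still. All 12 had non-overlapping groups lower in knockout, against 14.7% of all genes, with a median of -2.28. Of the 11 tested, 3 fell past the threshold in limma, against 0.0345% of all tested genes. These were Actc1, Myl1 and Acta1 (limma adjusted p = 0.00719, 0.00719 and 0.0453). The summed intensity of the 12 was 2939 and 1446 in wild type and 148 and 146 in knockout. The 2 wild-type arrays thus differed by more than the knockout arrays did. The parts of fibroblast and muscle RNA in the lower fibrillar values were not tested. In whole tissue, fewer cells of a type and less RNA per cell cannot be told apart.

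Further cell types that the dissection could carry are described by the same values. Pericyte markers had a median of -0.44, with 1 of 6 lower without overlap, and summed to 1227 and 888 in wild type and 1377 and 669 in knockout. Vascular endothelium markers had a median of 0.17, with 0 of 10 lower without overlap, and macrophage markers -0.05, with 2 of 8. Over all genes 14.7% were lower and 14.0% higher without overlap. The lens's own lists had medians of -0.20 for 9 epithelium and 0.00 for 11 fibre markers. Of the fibre markers 2 were lower without overlap, Bfsp1 at -1.06 and Dnase2b at -1.25, and 2 were higher. None of the 11 passed the threshold (0.0345% of all tested genes), and the median does not show that each was unaltered. Neural retina markers were at -0.61 and summed to 2017 and 2241 in wild type and 2033 and 1018 in knockout, and erythroid markers were at 0.90, with 0.24 and 1.17 within numbers 1 and 2. Pigment cell markers had a median of 0.32 and corneal markers -0.35, with 1 of 5 corneal markers bright enough to be tested.

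**Figure D4:**
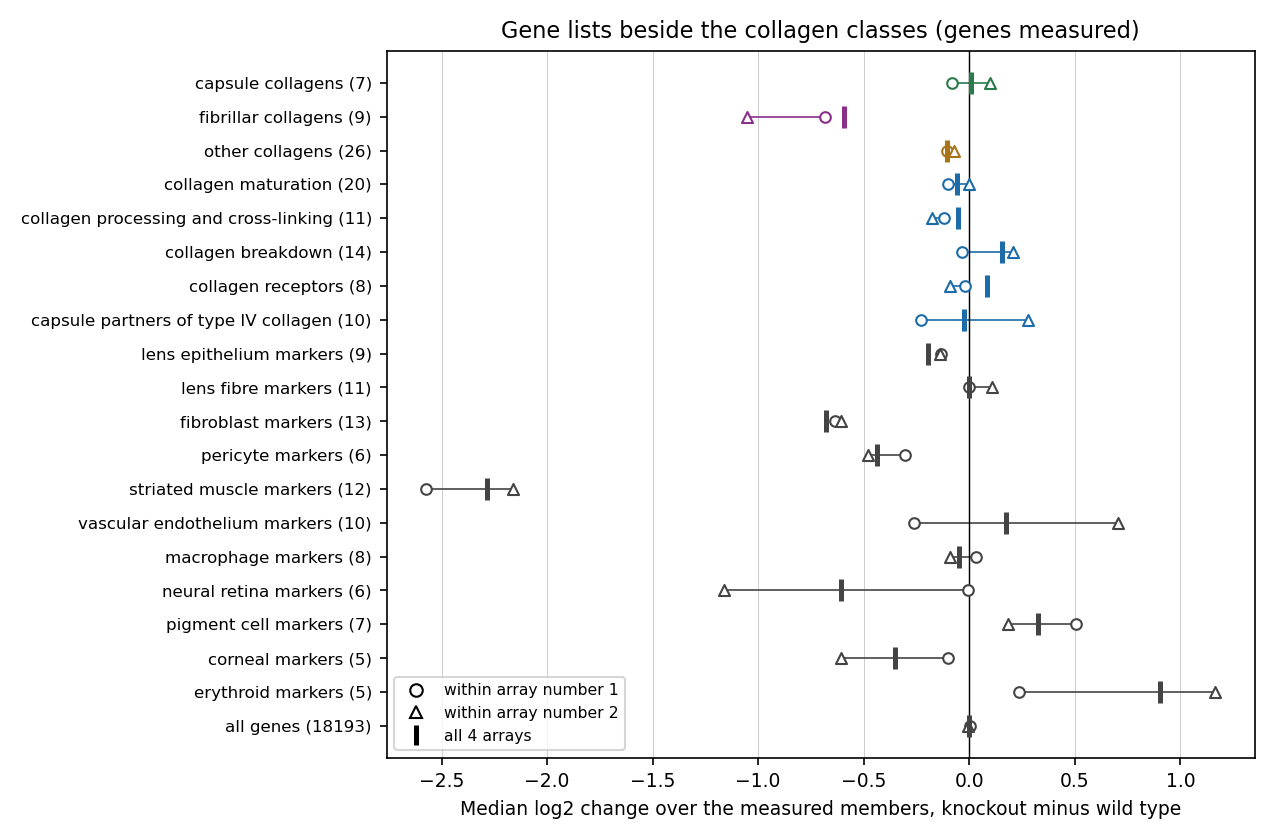
Median log2 change, knockout minus wild type, over the measured members of each list (number of genes in brackets); vertical bars are all 4 arrays, circles and triangles array numbers 1 and 2, green, purple and brown the collagen classes, blue the collagen-handling lists and dark grey the marker lists and all genes. Striated muscle, fibroblast and fibrillar collagen medians lie at -2.28, -0.68 and -0.59, and the capsule collagens at 0.01. A median need not lie between those within the numbers.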

How the data were processed

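RNA of 4 newborn lens samples was measured on arrays of Affymetrix probe sets, 2 a group. Per the labels' protocols, dissected lenses went into RNAlater, and RNA was column-purified with DNase digestion and labelled by oligo-T7 reverse transcription. The authors deposited linear intensity values, 1 for each of 45101 probe sets per array, not normalized between arrays. How probes were summarised is not given in the sources used. Intensities were quantile normalized, 16 was added and log2 was taken (limma 3.58.1, R 4.3.3). The 64 control probe sets were then left out. Platform annotation gave 34945 probe sets 1 symbol, 932 several and 9160 none, and no gene was named from several. Each gene took its probe set with the highest mean log2 over the 4 arrays. Groups were compared by limma with a variance trend, without a block for the array number. Fits were run on 10 simulated sets of 11595 genes, with 200 genes altered in each and noise drawn independently for each array. They recovered 4.33% of genes altered 2-fold in intensity + 16, 75.2% of those altered 4-fold and 97.9% of those altered 8-fold. Of the calls, 4.92% were false. These rates hold for that setting alone, since same-numbered arrays here deviated together.

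Members, classes and lists were chosen with earlier results of these data known. Named were all capsule and fibrillar members, other collagens at least 2-fold apart without overlap or among the 4 brightest, and up to 4 passing or otherwise 2 lowest-p genes per list. Col6a2, Col8a1, Col9a2, Col9a3, Mip, Lim2, Krt12, Kera, Aldh3a1, Krt14, Xist, Ogn, Twist1 and Twist2 fall outside that rule and were chosen after their values were seen. Alternatives were other normalizations, offsets and filters, no variance trend, the number as a block, the mean of all probe sets and leaving out each array.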

Additional observations from a re-analysis of the deposited data

How the results depend on the processing

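Col1a1, Col1a2, Col3a1, Col5a2 and Col6a1 were lower in knockout under all 15 alternatives, but many of these could not turn the sign. The filters, the fit without trend and the block leave a gene's change as it is. Groups without overlap keep their direction with another offset or an array left out. The capsule median lay above the fibrillar one under all 12 alternatives run for it, with a gap of 0.18 as deposited and with median centring. The block cannot alter this gap, and median centring shifts whole arrays and so repeats the deposited gap. The number of collagen genes past the threshold was 0 under the other normalizations, offsets, filters, the fit without trend and averaged probe sets. With the array number as a replicate block it was 4 (Col1a1, Col1a2, Col3a1 and Col5a2) and that of collagen-handling genes was 2 (Lox and P4ha1), while 200 genes in all passed. Same-numbered arrays deviated together from their group means (correlation 0.43 over genes), but with 2 numbers and no shared animal or day in the labels this does not pair them. Leaving out each array gave 0 to 3 collagen and 0 to 1 collagen-handling genes, while 4 and 7 genes in all passed without wild-type arrays 1 and 2 and 274 and 61 without knockout arrays 1 and 2. In those fits the lone sample of a group is assumed to vary like the other group.

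As deposited, the median over all genes was -0.32, against -0.14 with median centring, 0.02 with trimmed-mean scaling and between -0.0095 and 0.0083 otherwise, and the class values there are to be read against it. As deposited the capsule median was -0.55 and that of the other collagens -0.31, and with median centring the capsule median was -0.38. The other collagens had -0.14 with median centring, -0.053 with trimmed-mean scaling, -0.25 with offset 1, -0.051 with offset 64 and -0.060 where probe sets were averaged. The fibrillar median was -1.25 with offset 1, -0.20 with offset 64 and -0.35 where probe sets were averaged, and the capsule-to-fibrillar difference was 1.26 with offset 1. Over left-out arrays the medians ranged from -0.37 to 0.34 for capsule, -0.84 to -0.51 for fibrillar and -0.21 to -0.10 for other genes, and the difference from 0.26 to 1.18.

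Small changes turned sign. As deposited and with median centring Col4a1 had -0.52 and -0.35, Col4a2 -0.55 and -0.38, Col4a3 -0.21 and -0.035, Col4a6 -0.29 and -0.12, Col2a1 -0.43 and -0.26, and Col11a1 -0.49 and -0.32. Col11a1 had -0.013 with trimmed-mean scaling and -0.011 with offset 1. With averaged probe sets Col4a3 had -0.25, Col11a1 -0.35 and Col18a1 0.059. Over left-out arrays the changes ranged from -0.46 to 0.47 for Col4a1, -0.25 to 0.34 for Col4a2, -0.22 to 0.34 for Col4a3, -0.99 to 0.44 for Col4a4, -0.88 to 0.35 for Col4a5, -0.59 to 0.43 for Col18a1, -0.51 to 0.66 for Col2a1, -0.59 to 0.18 for Col5a1 and -0.35 to 0.35 for Col11a1. The cause was not tested. With 2 arrays a group, 4.33% of 2-fold changes were called in simulation, so the absence of calls does not show that collagen RNA was unaltered.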
